A study of Mus musculus with 24 samples.

Results

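Of 63188 accessible regions found by ATAC-seq in stem cells of mouse skin, 1434 (2.27%) were present in unwounded epidermis and in healed wounds of either depth, and absent from hair follicle stem cells and from every early wound. They were chosen by presence in the deposited peak lists: each was held by the lists of epidermal stem cells at day 0 and day 80 and of partial-thickness and full-thickness wounds at day 80, and by none of the lists of hair follicle stem cells, partial-thickness wounds at day 3 and day 7, and full-thickness wounds at day 7. Presence in these 8 lists is therefore the selection itself and not a finding. The regions are called regained regions here, and a list is said to hold a region when one of its peaks overlaps it by at least 1 bp.

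ATAC-seq marks open chromatin by the cuts of a transposase. All 24 samples came from sorted skin cells of mice of a CD1 x C57BL/6J cross that carried a CreER transgene and the R26-YFP reporter. The unwounded hair follicle (4 samples) and epidermal stem cells (4 samples from day 0, 3 from day 80) were Krt19-CreER/R26-YFP, as were the wound-responsive progeny of hair follicle stem cells from partial-thickness wounds, labelled Dremel (3 samples from day 3, 2 from day 7, 3 from day 80). The full-thickness wounds, labelled Punch (3 samples from day 7, 2 from day 80), came from Sox9-CreER/R26-YFP mice, and their source is given as wound-responsive progeny of epidermal stem cells. The Krt19 or the Sox9 promoter sets which cells make CreER. No gate of the sort and no age of the mice was given. Each group had 1 peak list of 29365 to 37214 peaks, so no group has replicate peak lists, no test between groups was run, and wound type, genotype and labelled source cannot be told apart.

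Epidermal stem cells line the base of the skin's barrier layer and renew it, whereas hair follicle stem cells sit in the bulge of the follicle and normally regenerate hair. When the skin is wounded, cells from both sources migrate into the defect, and follicle-derived cells can stay in the new epidermis and take on its fate. For the partial-thickness series, whose cells are labelled as follicle progeny, a regained region is one that the follicle list lacked and that was first listed at day 80. For the full-thickness series it is one listed in unwounded epidermis, missing at day 7 and listed again at day 80, if the labelled epidermal source holds. Sox9, whose promoter drives CreER in these mice, is also a follicle stem cell gene, and this conflict with the label was not settled here.

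The gene starts that lay inside regained regions were few, and they are the places where the regained chromatin includes a gene's own start. Of their promoters 6 are shown as examples, chosen after their values had been seen. In 31 cases the promoter window of a RefSeq start site (GRCm38.p6, 250 bases before to 50 after it) lay wholly within a regained region, and these windows belonged to 29 genes. Printed are the 250 bases before the start site on the gene's strand, 5′ to 3′, with matches to the searched motifs in capitals. Bmp4 encodes a secreted growth factor of the BMP family, and its promoter is chr14:46390670-46390919 on the minus strand. Sdcbp2 (chr2:151572373-151572622, plus strand) encodes syntenin-2, a scaffold protein, and Lmntd1 (chr6:145434926-145435175, minus strand) a protein with a lamin tail domain. Gpr37 (chr6:25689981-25690230, minus strand) encodes an orphan G protein-coupled receptor. Cyp2b19 (chr7:26756892-26757141, plus strand) encodes a cytochrome P450 of keratinocytes, and Rorb (chr19:19111197-19111446, minus strand) a nuclear receptor, at which no other region was found.
Bmp4: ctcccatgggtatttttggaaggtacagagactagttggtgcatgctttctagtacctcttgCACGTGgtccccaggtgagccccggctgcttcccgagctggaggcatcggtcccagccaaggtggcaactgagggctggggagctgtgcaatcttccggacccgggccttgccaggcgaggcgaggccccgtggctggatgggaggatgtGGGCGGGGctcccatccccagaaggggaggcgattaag
Sdcbp2: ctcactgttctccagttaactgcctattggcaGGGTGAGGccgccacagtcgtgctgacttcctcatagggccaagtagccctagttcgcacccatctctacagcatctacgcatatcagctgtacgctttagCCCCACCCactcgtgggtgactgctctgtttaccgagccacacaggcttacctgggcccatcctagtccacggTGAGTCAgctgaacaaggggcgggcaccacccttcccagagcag
Lmntd1: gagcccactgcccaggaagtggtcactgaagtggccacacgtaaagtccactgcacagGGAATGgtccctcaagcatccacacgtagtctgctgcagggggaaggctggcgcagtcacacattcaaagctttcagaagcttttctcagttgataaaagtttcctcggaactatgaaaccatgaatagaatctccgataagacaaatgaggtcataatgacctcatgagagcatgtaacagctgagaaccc
Gpr37: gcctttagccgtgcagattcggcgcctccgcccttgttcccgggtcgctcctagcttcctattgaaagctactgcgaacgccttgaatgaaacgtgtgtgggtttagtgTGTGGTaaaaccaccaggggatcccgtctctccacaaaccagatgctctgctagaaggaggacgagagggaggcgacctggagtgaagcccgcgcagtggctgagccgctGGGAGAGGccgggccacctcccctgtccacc
Cyp2b19: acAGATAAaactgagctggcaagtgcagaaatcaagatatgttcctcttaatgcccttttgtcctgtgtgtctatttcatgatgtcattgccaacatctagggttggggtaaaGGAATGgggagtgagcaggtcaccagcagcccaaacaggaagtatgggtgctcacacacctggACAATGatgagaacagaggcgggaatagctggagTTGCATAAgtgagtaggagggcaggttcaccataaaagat
Rorb: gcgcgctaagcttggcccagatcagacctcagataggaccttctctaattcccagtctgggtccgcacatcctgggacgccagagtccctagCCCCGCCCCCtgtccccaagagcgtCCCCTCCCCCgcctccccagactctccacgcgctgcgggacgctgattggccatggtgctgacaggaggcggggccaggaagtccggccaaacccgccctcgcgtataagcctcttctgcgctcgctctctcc
In Bmp4 the capitals mark an E-box, CACGTG, that begins 188 bases before the start site, and a match to the Klf and Sp motif CCNCNCCC on the other strand that begins 38 bases before it. Sdcbp2 has an AP-1 motif, TGANTCA, 44 bases before its start and 2 Klf and Sp matches, of which 1 is on the other strand. In Cyp2b19 the capitals mark a GATA match, AGATAA, a Tead match, CATTCC on the other strand, a Sox match, ACAATG, and a CEBP match, TTGCNNAA. Lmntd1 has a Tead match, and Gpr37 a Runx match, TGTGGT, and a Klf and Sp match. In Rorb all capitals belong to overlapping Klf and Sp matches. A match is a stretch of letters and no evidence of binding.

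The promoters inside regained regions were poor in CpG dinucleotides. Their median was 4 CpG in 250 bases, against 6 over all 32851 promoter windows and 18 in the 8974 windows inside regions that all 8 lists held. Among the 6 printed, Cyp2b19 had 1 CpG, Lmntd1 had 5, Sdcbp2 had 9, Bmp4 had 11, Gpr37 had 16 and Rorb had 18. Of the 14 motifs searched on both strands, the Tead motif CATTCC stood in 10 of the 31 windows (32.3%), in 12.6% of all windows and in 10.2% of the 12347 windows inside any accessible region. The GATA motif AGATAA stood in 6 (19.4%), against 9.99% of all windows and 5.07% of accessible ones, and the AP-1 motif TGANTCA in 3 (9.68%), against 6.75% and 5.17%. The Klf and Sp motif CCNCNCCC stood in 17 (54.8%), above the 45.9% of all windows and below the 64.9% of accessible ones. The p63 motif, searched as a pair of CATG sites with 6 bases between them, stood in 2 of the 31 windows, those of a start site of Arhgdib and of Gm34501, in 0.49% of all windows and in 0.23% of accessible ones. Searched with no match in the 31 windows were the NFI, glucocorticoid receptor, Ets (CCGGAAGT) and Tcf and Lef (ATCAAAG) motifs. These shares rest on 31 windows, some of which share bases, and are descriptions.

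Regained regions were the third most frequent pattern among the regions that unwounded and healed epidermis shared. All 4 epidermal and healed lists held 21716 regions. Of these, 13929 were in all of the other 4 lists as well, and 3044 were in the 3 early wound lists but not in the follicle list. The 1434 regained regions made up 6.6% of the 21716. A further 394 differed from them only in being held by the follicle list too: they were open in every unwounded and healed list and in no early wound list.

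**Figure D1:**
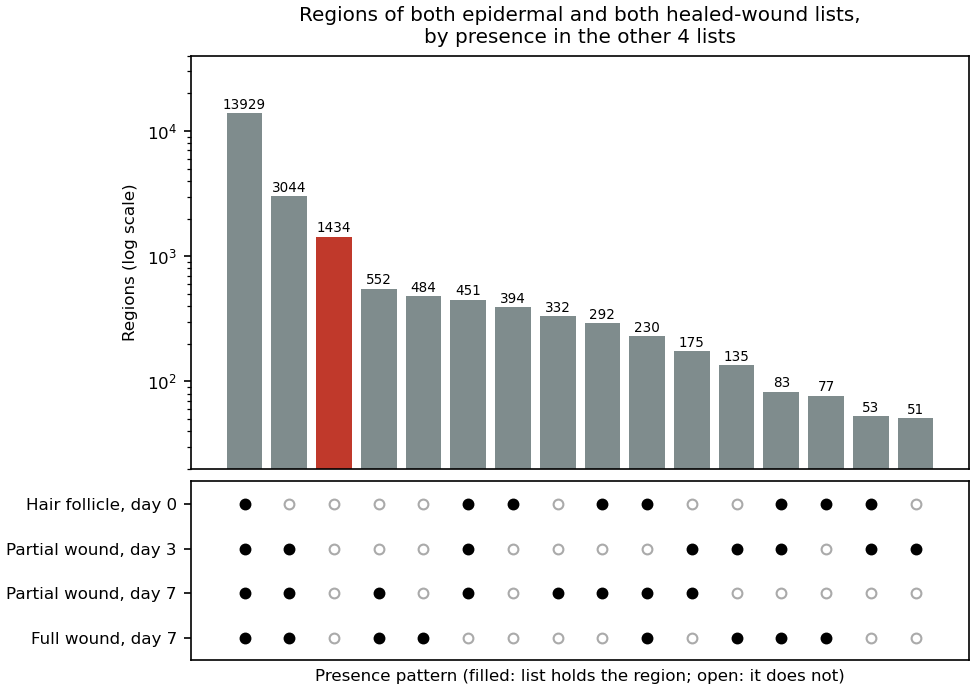
Number of regions (log scale) for each of the 16 presence patterns over the follicle list and the 3 early wound lists, among the 21716 regions that both epidermal and both healed lists held; filled dots mark the lists that held the region. The regained regions (red, 1434) follow the regions of all 8 lists (13929) and those added by the 3 early wound lists alone (3044).

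The edges of the selection were as follows. Regions that fell outside because 1 of the 4 holding lists lacked them numbered 254 for day 0 epidermis, 179 for day 80 epidermis, 313 for the healed partial-thickness wound and 605 for the healed full-thickness wound. Regions that fell outside because 1 further list held them numbered 394 for the follicle, 51 for the partial-thickness wound at day 3, 332 for that wound at day 7 and 484 for the full-thickness wound at day 7. These single further peaks were weak in the early wounds. Their median percentile by score within their list was 11.5 at day 3, 21.0 in the partial-thickness list at day 7 and 20.6 in the full-thickness list at day 7, and it was 40.1 in the follicle list. Of the 51 regions kept out by day 3 alone, 23 (45.1%) had a peak in the lowest 10% of that list.

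The regained regions were of medium to low strength in the lists that held them. A peak's strength is given as its percentile by score within its list, where 100 is the strongest peak, and as its relative score, which is its score per 1000000 of the summed score of the list. The median percentile was 45.6 in day 0 epidermis, 49.2 in day 80 epidermis, 41.8 in the healed partial-thickness wound and 35.3 in the healed full-thickness wound. The 3044 regions that the early wounds held too had medians of 57.5, 54.0, 57.6 and 63.9 in the same order. In the 394 regions that the follicle list held too, the medians were 45.6, 56.0, 43.5 and 35.5. A low rank in the healed full-thickness list was thus not particular to the regained regions. The healed full-thickness list was the one in which a regained region was most often weakest, for 535 of the 1434, and day 80 epidermis least often, for 204. In fold enrichment over local background, as the authors' peak caller gave it, the medians were 7.73, 8.06, 9.14 and 7.94. For the regions of the 6 printed promoters, the lowest percentile over the 4 lists ran from 13.3 at Rorb and 16.3 at Cyp2b19 to 70.3 at Bmp4.

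The lists had different floors, and the floors of the early wounds were the highest. The lowest peak kept had a relative score of 12.5 and 12.04 in the partial-thickness lists of day 3 and day 7 and 11.9 in the full-thickness list of day 7. It had 9.78 in the follicle list and between 7.70 and 9.98 in the 4 holding lists. The median regained region had 20.3, 22.3, 20.2 and 16.6 in the holding lists, in the order above. In all 4 holding lists 749 regained regions (52.2%) were at or above 12.5, and 685 (47.8%) were below it in at least 1. The floors in −log10 p were farther apart, at 39.7, 40.2 and 32.2 in the early wounds against 7.86 to 21.0 in the holding lists, and 1403 regained regions (97.8%) were below 32.2 in at least 1 holding list and 348 (24.3%) in each. Signal under a list's floor was not used here, so absence from an early list means no peak above its floor, and the part of the floors in the absence was not tested. A firmer core of 160 regions (11.2%) was in the upper 50% of each of the 4 holding lists, while 383 (26.7%) were in the lowest 10% of at least 1.

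**Figure D2:**
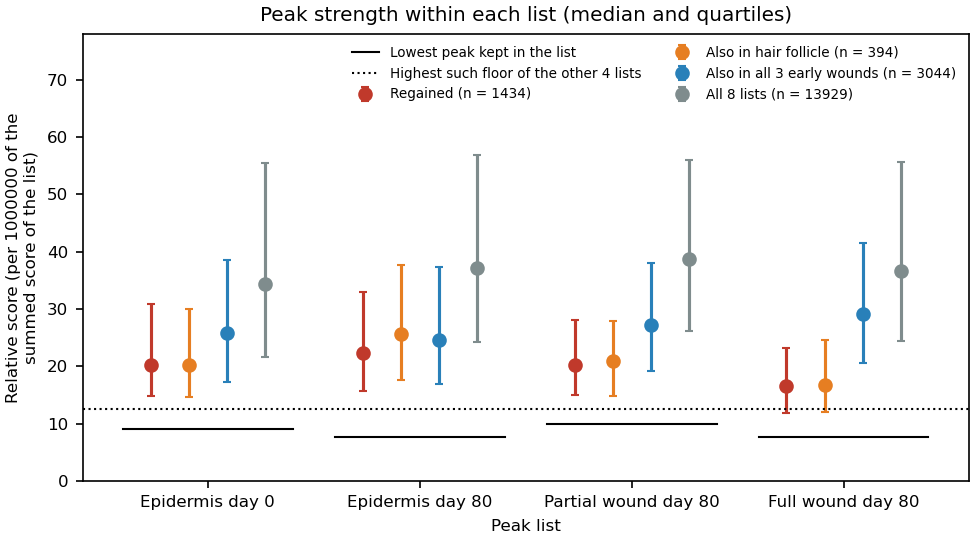
Relative score (per 1000000 of the summed score of the list; median, with bars to the quartiles) of peaks in the 4 holding lists for 4 classes of regions; short lines mark the lowest peak kept in each list and the dotted line the highest such floor (12.5) of the other 4 lists. The regained regions have medians of 16.6 to 22.3, and the regions of all 8 lists lie higher in each list.

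The position of the peak summit within a regained region was not used by the selection, and it differed little between lists. The summits of the 4 lists spread over a median of 81 bp, with quartiles of 51 and 135 bp, and in 905 regions (63.1%, 60.6 to 65.6) all 4 lay within 100 bp. In the 3044 regions that the early wounds shared, 69.8% (68.2 to 71.5) did, and in the regions of all 8 lists 62.9% (62.1 to 63.7). The median width of a regained region was 893 bp, with a range of 355 to 2895 bp, against 951 bp over all regions.

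Peaks of the lists that lacked a regained region were seldom close by. The nearest peak in any of those 4 lists was at a median distance of 9696 bp. It was within 1 kb for 50 regained regions, within 100 bp for 0, and over 50 kb away for 220 (15.3%). By list, the median distance was 21072 bp to a follicle peak, 15684.5 bp to a day 3 peak, and 14753 and 14963 bp to a day 7 peak of the partial-thickness and full-thickness wounds. The distances carry the selection with them, since a region with an overlapping peak was left out.

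Regained regions lay mostly away from gene starts. Only 58 of the 1370 regained regions with a start site on their chromosome in the table (4.23%, 3.23 to 5.44) were within 1 kb of one. The share was 5.79% (3.66 to 8.63) in the 394 regions that the follicle list held too, an interval that overlaps that of the regained regions. It was 8.01% (7.05 to 9.05) in the regions that the early wounds shared, 18.4% (18.1 to 18.7) over all regions and 50.9% (50.04 to 51.7) in the regions of all 8 lists. The median distance to a start site was 29393.5 bp, against 17792.5 bp over all regions. Inside the span of a protein-coding gene lay 696 regained regions (48.5%, 45.9 to 51.2), and 341 (23.8%, 21.6 to 26.1) were over 50 kb from any such gene. Over all regions these shares were 57.8% and 16.5%, and in the 394 regions 51.3% (46.2 to 56.3) and 25.4% (21.2 to 30.0).

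**Figure D3:**
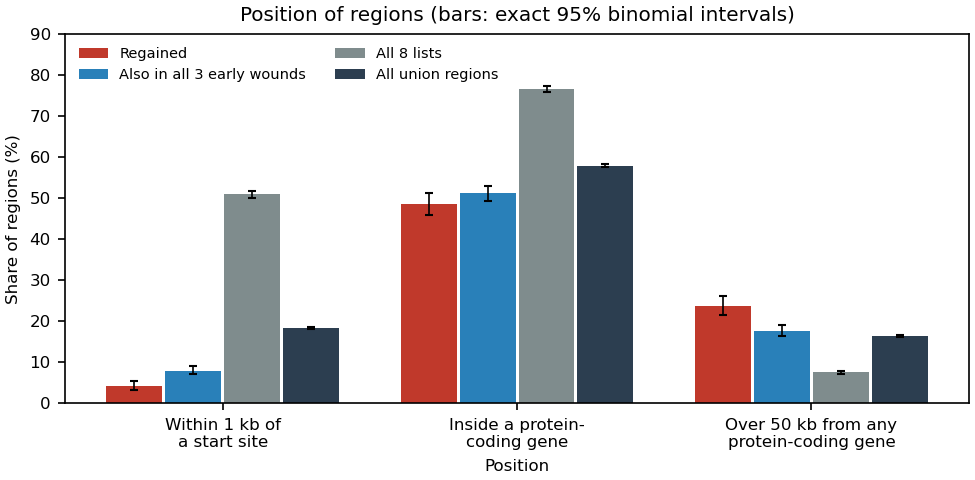
Share of regions (%) within 1 kb of a RefSeq start site, inside a protein-coding gene, and over 50 kb from any protein-coding gene, for 4 classes; bars are exact 95% binomial intervals, which cover counting error only. The regained regions have 4.23% at start sites and 23.8% over 50 kb from a gene.

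On chromosome X lay 49 regained regions (3.42%, 2.54 to 4.49), against 1.97% of all regions and 1.35% (0.97 to 1.82) of the regions that the early wounds shared. It was 3.55% (1.96 to 5.89) of the 394 regions that the follicle list held too and 3.72% (2.25 to 5.75) of the 511 regions that both epidermal lists alone held. The share of a list's own peaks on that chromosome also differed, from 1.40% to 1.83% in the 3 early wound lists, 2.14% in the follicle list and 1.99% to 2.45% in the holding lists. The part of these differences in the result was not tested.

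Regained regions were spread over many genes, with a few loci that held several. Within 50 kb of a protein-coding gene were 1093 regained regions, which is 2.07% of the 52791 regions so assigned, and they belonged to 931 genes. Of these genes 807 had 1 regained region, 96 had 2, 22 had 3, 5 had 4 and 1 had 8. Genes with a regained region had a median length of 74.2 kb and a median of 6 regions, against 24.8 kb and 2 over the 14894 genes with any region, so longer genes offered more regions to count. In 79 of the 931 genes with a regained region none of the 4 other lists held a region, and in 51 every region was a regained one. Genes without a region in those 4 lists were not counted over all 14894 genes, so these counts have no baseline.

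Genes of the BMP and TGF-beta pathway held 9 regained regions, most of them at ligand genes. BMP and TGF-beta ligands are secreted factors that signal through paired serine and threonine kinase receptors and Smad proteins, and in skin they restrain the growth of stem cells and steer follicle and epidermal fate. Of the 172 regions at the 23 genes of this list, 9 (5.23%, 2.42 to 9.70) were regained, against 2.07% of all assigned regions. They stood at the ligand genes Bmp4 (3), Tgfb2 (3) and Bmp2 (1), the receptor gene Tgfbr2 (1) and the signal transducer gene Smad3 (1). The other 18 genes of the list held 0, among them the antagonists Nog, Fst and Grem1 and the target genes Id1, Id2 and Id3. With a relative score of at least 18 in every holding list, 2 of the 9 were left (1.16%), and the share of all assigned regions was then 0.43%. Earlier results at Bmp4 and Tgfb2 in these lists were known when the gene list was chosen, so its count is a description and no independent evidence.

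Bmp4 (gene ID 12159, chromosome 14, 46383525 to 46390669) lay at the largest group of regained regions, with 5. Its start lay inside a regained region (46389838 to 46391359) whose fold enrichment was 5.76 in day 0 epidermis, 6.25 in day 80 epidermis, 6.15 in the healed partial-thickness wound and 7.03 in the healed full-thickness wound. In percentiles these peaks were at 73.7, 81.1, 75.3 and 70.3, so the promoter peak was in the upper part of each of the 4 lists, and the closest peak of the other lists was 1810 bp away. This is the promoter whose sequence is printed above. A further 4 regained regions had their middles 31.8, 49.0, 64.0 and 74.1 kb upstream of that start, and the last pair was beyond the 50 kb used to assign genes. At 31.8 kb the percentiles were 30.7, 72.1, 50.6 and 6.77, at 49.0 kb 48.5, 69.3, 29.6 and 71.1, at 64.0 kb 53.8, 74.9, 49.3 and 53.2, and at 74.1 kb 25.2, 51.2, 33.6 and 32.0.

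Between these 5 regions the early wounds were listed at 1 place. In the 75.8 kb that they span lay 8 regions in all, of which day 0 epidermis held 8, day 80 epidermis 7, the healed wounds 8 and 7, each early wound list 1 and the follicle list 0. For the 5 regained regions among them this is the selection itself. Of the others, centred 7.54, 17.9 and 65.8 kb upstream, day 0 epidermis and the healed partial-thickness wound held all. Day 80 epidermis lacked the one at 65.8 kb, and the healed full-thickness wound lacked the one at 17.9 kb. The early wound region was the one centred 7.54 kb upstream of the start, with a fold enrichment of 8.55 at day 3, 13.1 in the partial-thickness wound at day 7 and 10.2 in the full-thickness wound at day 7. In percentiles it was weak at day 3 (6.35) and of medium strength at day 7 (55.1 and 56.5). Just outside the span, a region inside the gene and one 80.6 kb upstream were held by both day 7 lists, at percentiles of 1.75 to 17.4, and not by the day 3 list.

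**Figure D4:**
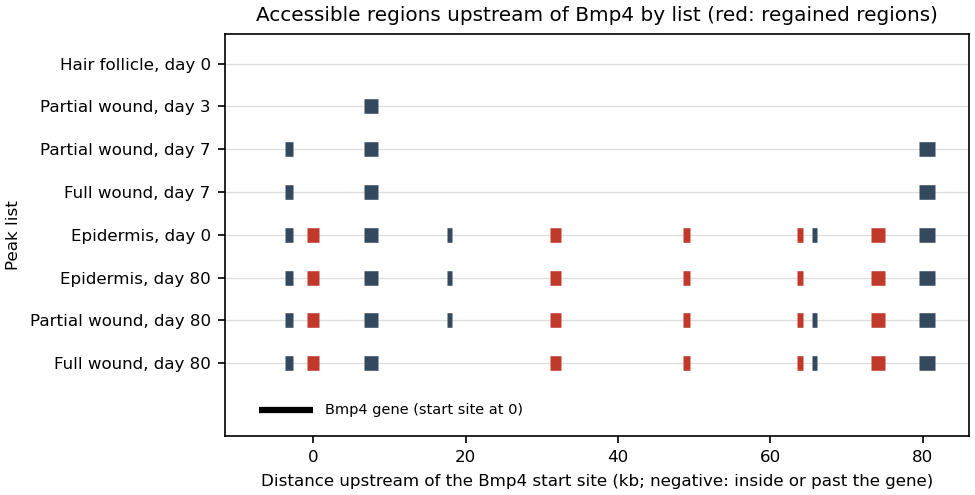
Accessible regions around the Bmp4 start site by list, drawn to scale as distance upstream in kb, with regained regions in red and other regions in dark blue. The follicle row is empty, and the 3 early wound rows share only the region 7.54 kb upstream. Which rows hold the red regions is the selection itself.

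Tgfb2 (gene ID 21808, chromosome 1, 186622787 to 186709697), which encodes transforming growth factor beta 2, held 3 regained regions among its 11, all inside the gene. They began at 186634718, 186662558 and 186674206 and fell within 40.7 kb. Their fold enrichments were 7.35, 5.63, 9.89 and 8.98 for the first, in the order day 0 epidermis, day 80 epidermis, healed partial-thickness and healed full-thickness wound. They were 7.63, 7.49, 8.18 and 10.5 for the second and 9.76, 10.9, 8.81 and 8.21 for the third. In fold enrichment no list was the highest at all 3. By percentile the first was weak in day 80 epidermis, at 5.03, against 41.0 to 46.0 in the other holding lists. The percentiles ran from 43.7 to 68.8 for the second and from 36.2 to 78.8 for the third. Within those 40.7 kb lay no peak of the other 4 lists, and the closest were 19753 to 31447 bp from the 3 regions. The span held 4 regions in all, and for the 3 regained ones the absence from those lists is the selection itself.

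Bmp2 held 1 regained region of 426 bp near the gene, which was among the weakest, with a fold enrichment of 2.84 and a percentile of 2.35 in day 0 epidermis. Tgfbr2, which encodes the type II receptor for TGF-beta, had its regained region centred 7.88 kb upstream of a start site, with fold enrichments of 7.13, 6.19, 7.65 and 9.51 in the same order. Its percentile was lowest in the healed partial-thickness wound, at 7.71.

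Genes for axon guidance and adhesion, a family of ligands and receptors that also guide epithelial cells, held 11 regained regions of 371 (2.96%, 1.49 to 5.24), an interval that includes the 2.07% of all assigned regions. Robo1, a receptor for Slit proteins, Slit3, a Slit ligand, Sema5a, a semaphorin, and Dab1, the adaptor of reelin signalling, held 2 each, and Robo2, Ntn4 and Tenm4 held 1 each. The 2 of Dab1 lay inside a gene with 16 regions, of which day 0 epidermis held 14, day 80 epidermis 11 and the follicle 1. In these counts the 2 regained regions stand by the selection itself. The stronger of them (104113207 to 104115021 on chromosome 4) was at percentiles of 85.6, 82.7, 73.2 and 64.9 in the holding lists. Slit3 combined a strong region (percentiles of 80.9, 69.7, 85.8 and 78.3) with one that was at percentile 0.52 in the healed partial-thickness wound, close to that list's floor.

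In the list of clock and steroid hormone genes 5 of 145 regions (3.45%, 1.13 to 7.86) were regained, an interval that includes the 2.07% of all assigned regions. Most of the 5 stood at hormone receptor genes. Prlr, the prolactin receptor gene, held 2, and Ghr (growth hormone receptor), Esr1 (oestrogen receptor alpha) and Arntl (the clock factor BMAL1) held 1 each. Prlr had 17 regions, of which the follicle list held 11, both epidermal lists 12, the healed wounds 10 and 11, and the early wounds 2 to 4. These counts include the 2 regained regions of Prlr, which the selection placed. Its 2 regained regions were weak in the healed full-thickness wound, at percentiles of 16.7 and 5.46. The Ghr region had fold enrichments of 7.83, 6.55, 7.57 and 6.67, and the Esr1 region of 7.74, 10.1, 11.4 and 7.83. In percentiles the Ghr region was at 34.7, 19.1, 11.8 and 13.1, and the Esr1 region at 31.4, 57.9, 41.0 and 28.8. The other genes of that list, including the glucocorticoid receptor gene Nr3c1 and the clock genes Per1 and Per2, held 0.

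Genes that define keratinocyte identity held regained regions at shares whose intervals include the 2.07% of all assigned regions. Of the 126 regions at basal keratinocyte genes 2 (1.59%, 0.19 to 5.62) were regained, near the integrin genes Itga6 and Itgb1, and of the 122 at epidermal stem cell genes 2 (1.64%, 0.20 to 5.80), inside the transcription factor genes Gata3 and Grhl3. The Gata3 region (9859857 to 9860934 on chromosome 2) was at percentiles of 81.2 and 34.0 in day 0 and day 80 epidermis and of 75.6 and 19.4 in the healed partial-thickness and full-thickness wounds, so the lists of one kind disagreed. The Grhl3 region was at percentile 2.35 in day 0 epidermis and 64.7 in the healed partial-thickness wound, and its summits lay up to 1712 bp apart, so the 4 peaks were not at one place. Terminal differentiation genes had 2 of 77 (2.60%, 0.32 to 9.07) and keratin genes 1 of 41 (2.44%, 0.062 to 12.9). Of these, Tgm3 (a transglutaminase of the cornified layer), Lor (loricrin) and Krt10 (the keratin of the suprabasal layers) each had 1 regained region, 2126 to 10147 bp from the closest peak of the other lists. Krt5, Krt14, Trp63, Klf5, Notch3 and Stat3 had 0.

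Growth factor, lipid and cell cycle genes had 2 or 3 regained regions per list. The interval of each of these shares includes the 2.07% of all assigned regions. Nrg1, a ligand of the ErbB receptors, held 2 regained regions and Errfi1, an inhibitor of the EGF receptor, 1, together 3 of the 132 regions of their list (2.27%). Elovl6, a fatty acid elongase, held both of the 2 regained regions among the 118 at retinoid and lipid genes (1.69%, 0.21 to 5.99). Ccnd2 (cyclin D2) and Cdk6 (its kinase partner) held the 2 among the 66 at cell cycle genes (3.03%, 0.37 to 10.5). The Errfi1 region was at percentile 1.36 in day 80 epidermis and 55.0 in the healed partial-thickness wound. Single regained regions also stood at Nfib of the follicle list (1 of 185), Lgr4 of the Wnt and hedgehog list (1 of 177), Ets2 of the wound epithelium list (1 of 99) and Tnfaip3 of the inflammation list (1 of 117). Each of these shares was below the 2.07%, with an interval that includes it.

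A further group of lists held no regained region. It comprised AP-1 and stress genes (0 of 90 regions, which allows a share of up to 3.33%), Notch genes (0 of 109, up to 2.75%), hypoxia and glycolysis genes (0 of 70, up to 4.29%), sebaceous gland and isthmus genes (0 of 60, up to 5.0%) and housekeeping genes (0 of 18, up to 16.7%). These limits are 3 counts of the total; the exact 95% intervals, which the plot of gene lists draws, reach from 3.33% for Notch genes to 18.5% for housekeeping genes. The 2.07% of all assigned regions is below each of these limits. Follicle stem cell genes held 1 of 185 (0.54%, 0.014 to 2.97), and Sox9, Lgr5 and Cd34 held 0.

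**Figure D5:**
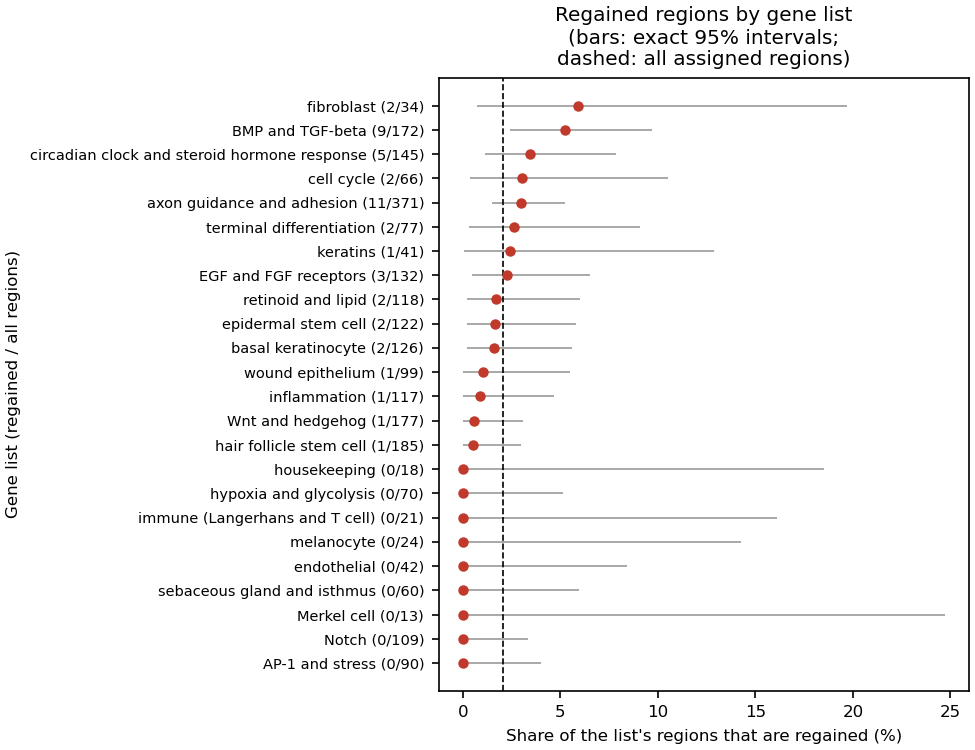
Share of the regions of each gene list that were regained (%), with the regained and all regions of the list in brackets; bars are exact 95% binomial intervals and the dashed line is the 2.07% of all assigned regions. The interval of the BMP and TGF-beta list (2.42 to 9.70) starts just above the dashed line. The fibroblast list has the highest share (5.88%), with an interval that spans the line.

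The gene with the most regained regions was also one of the long ones. Dlg2 (gene ID 23859, chromosome 7, 90476188 to 92449246), a scaffold protein of cell junctions and synapses, held 8 of its 37 regions as regained, over 1973059 bp. Of those 37, day 0 epidermis held 28, day 80 epidermis 27, the healed wounds 22 and 25, the early wounds 13 to 14 and the follicle 9. The 8 regained regions of Dlg2 count in each holding list and in none of the other 4, which is the selection itself. Its strongest regained region (90871709 to 90872133) had fold enrichments of 15.2, 15.0, 14.3 and 14.1 in the 4 holding lists and was 176062 bp from any peak of the other lists. A group of 4 between 92214913 and 92301745 spanned 86.8 kb with no other region in it, so which lists held these regions is the selection itself. A region that the follicle list held, 92212902 to 92214137, lay 775 bp outside the group. Plcb1 (phospholipase C beta 1), Syt1 (synaptotagmin 1), Cers6 (ceramide synthase 6), Stard13 and Pde4d (a phosphodiesterase of cyclic AMP) held 4 each, of 18 to 48 regions.

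At some shorter genes several regions of the locus were regained. C7, a complement component (gene ID 109828, chromosome 15, 4987750 to 5063773), had 4 regions, of which 3 were regained, and no list of the follicle or of an early wound held any of the 4. For the 3 this absence is the selection itself, and only the region at 5069027 was not chosen by it. The fold enrichments of the 3 regained regions of C7 were 11.8, 10.2, 11.6 and 9.58 for the one at 5009316, 11.0, 11.7, 10.8 and 10.8 for the one at 5032980, and 10.3, 10.8, 12.4 and 9.29 for the one at 5041109. These fold enrichments varied little between the 4 lists, but the percentiles did not. In the same order they were 93.3, 77.7, 59.2 and 49.3 for the first region. They were 73.4, 75.3, 43.7 and 60.9 for the second and 69.7, 69.7, 63.8 and 45.8 for the third. The closest peaks of the other lists were 46567 to 78582 bp from the 3 regions. With a regained region near Card6 they formed a group of 4 within 72.8 kb. Mzt1, a subunit of the microtubule-nucleating complex, had 3 of 4 regions regained, and Cd96, a receptor of lymphocytes, 3 of 6.

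Pde7b, another phosphodiesterase of cyclic AMP, had 3 regained regions of 8 and likewise none of its regions in the other 4 lists. For the 3 regained regions of Pde7b that absence is the selection itself. Its regained regions were 68739 to 188606 bp from the closest peak of those lists. Their percentiles in the holding lists ran from 22.6 to 69.8, so none of the 3 was among the strong peaks of a list.

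The strongest regained regions were in the upper part of every holding list. The first, at 58595643 to 58596686 on chromosome 7, was over 50 kb from any protein-coding gene, at 59456 bp, and its percentiles were 94.9, 96.9, 94.5 and 91.6 with fold enrichments of 13.7, 13.7, 12.9 and 15.8. The second lay inside Adamtsl1, which encodes a secreted matrix protein, with fold enrichments of 11.4, 11.7, 10.5 and 10.9. Next came regions near Gm44812, upstream of Acsm4 (an acyl-CoA synthetase of medium-chain fatty acids), upstream of Bank1 (a scaffold of B cells) and near Pkia (an inhibitor of protein kinase A). A region inside Calcrl, the receptor gene of adrenomedullin and CGRP, had summits that agreed to 7 bp over the 4 lists and fold enrichments of 13.1, 13.1, 13.9 and 13.5. Of the 12 strongest, 4 had no protein-coding gene within 50 kb.

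At the other end were regions that only just entered a list. The region inside Ccdc88c, a gene chosen after its values had been seen, was at percentile 0.52 in the healed partial-thickness wound. It was at percentiles of 43.8 and 58.6 in day 0 and day 80 epidermis and 39.0 in the healed full-thickness wound, so only 1 list placed it near its floor.

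Regions at marker genes of other cell types were checked as a measure of what the sorted cells could hold. The list of 15 Langerhans and T cell genes had 1 to 6 regions in the 4 holding lists, 4 in the follicle list and 9 to 12 in the early wound lists, and 0 of its 21 regions were regained. Cd207, which marks Langerhans cells, had no region in any list. The 8 endothelial genes had 9 to 16 regions in the holding lists and 17 to 26 in the early wounds, with 0 of 42 regained. The 9 melanocyte genes had 9 to 11 regions in the holding lists and 10 to 12 in the early wounds, and the 6 Merkel cell genes 1 to 4 and 3 to 8, with 0 of 24 and 0 of 13 regained. The 10 fibroblast genes had 11 to 15 regions in the holding lists, 10 in each early wound list and 22 in the follicle list. Of their 34 regions 2 (5.88%, 0.72 to 19.7) were regained, against 2.07% of all assigned regions. That share was the highest of the 24 gene lists, and its interval includes the 2.07%. The 2 stood near Dpt (dermatopontin) and inside Pdgfra (a receptor for platelet-derived growth factor). The part of these cell types in the result was not tested. Krt14, a keratin of basal epidermis, had a region in every list, whereas Krt5 had 0 in the day 0 epidermal list and 1 or 2 in the others.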

How the data were processed

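Accessible chromatin was measured by ATAC-seq in 24 mouse skin samples in 8 groups, of which the authors deposited 1 peak list per group. Per the submitters' processing notes, the genome build was mm10 and the tools included bedtools 2.29.2, MACS2 2.1.1.20160309, Picard and Bowtie. For the pooling of reads and the filter on calls, details were not given in the sources used here. Scores in the deposited lists are 10 times the −log10 q, cut to a whole number, in 99.996% of peaks. Each deposited peak also has a fold enrichment (a ratio to its local background) and a −log10 p, both belonging to its own list. These values are the authors' and served for description and ranking inside a list. No read counts were used, so depth is unknown, and intervals cover counting error only.

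Peaks of all lists were joined where they overlapped, and a list held a region when a peak overlapped it by 1 bp. Where a list had several peaks in a region, the one with the highest score was taken. The percentile of a peak is its rank by score in its list, and its relative score is its score per 1000000 of the summed score of its list. Lists were matched to groups by the name they were deposited under. The peak names of the day 0 epidermal list carry a control tag for day 7, a group that the labels do not have.

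Each region went to the closest protein-coding gene up to 50 kb away, by RefSeq coordinates on GRCm38.p6 (mm10), with ties among overlapping genes going to the gene end nearest the region's middle. Start sites and promoter sequences came from a RefSeq table of the same assembly, and start sites of chromosome 18 were not used here. Exons, introns and UTRs were not analysed here.

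The regained regions, the 24 gene lists and the settings were chosen with earlier results of these data known. Named genes were the 20 with the most regained regions, up to 4 per gene list, the nearest genes of the 12 regained regions with the highest lowest percentile, the genes of the 5 largest groups of regained regions and 18 set genes. The promoters printed and the genes of smaller groups were chosen after their values had been seen. With 1 list per group no test was run; shares have exact 95% Clopper-Pearson intervals. Alternatives were another overlap, shorter lists, stricter presence, joined peaks, other windows and lists left out of the rule. Python 3.11.15, pandas 2.3.3, numpy 2.4.6, scipy 1.17.1 and matplotlib 3.10.9 were used, and the scripts were tested on simulated lists.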

Additional observations from a re-analysis of the deposited data

How the results depend on the processing

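No paired analysis was possible because each group has 1 peak list and no result comes from a test. Between 1384 and 1477 regions met the rule with lists of equal length, with peaks within 250 bp joined, with no peak of the other lists within 1 kb, or on autosomes alone (chosen after seeing the data), and between 1485 and 2039 did with 1 list left out of the rule. Where peaks had to cover 50% of a region, 563 met it, of 6944 in all 4 epidermal or healed lists, at 407 genes, with a share of 0.835% of all assigned regions, 2.33% of those at BMP and TGF-beta genes and 0.539% of those at axon guidance genes. With the upper 50% of each list these were 686 of 10095 at 476 genes (1.83% of assigned regions), and 44.3% lay inside a gene. With presence by the upper 50% and absence by whole lists, they were 160 of 10095 at 112 genes, with 40.6% inside a gene, 3.12% within 1 kb of a gene end, 0.218% of assigned regions, 0.581% of BMP and TGF-beta regions and 0.809% of axon guidance regions. With a relative score of at least 18 in each holding list, also chosen after seeing the data, they were 319 of 12994 at 219 genes, with 43.9% inside a gene, 3.13% at a gene end, 0.432% of assigned regions, 1.16% of BMP and TGF-beta regions and 0.809% of axon guidance regions. The share of assigned regions was 2.43% with lists of equal length and 1.94% with a gene window of 10 kb. A window of 2 kb placed 6.21% of regained regions at a gene end. Some of these settings keep fewer peaks by construction.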

Other observations

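Within 50 kb of another regained region lay 261 (18.2%), in 118 groups, of which 19 held 3 or more, those at Bmp4, Dlg2, C7, Mzt1 and Tgfb2 included. The same share was not counted for other classes of regions, so it has no baseline. Some groups were far from genes. A group of 4 between 109074142 and 109137731 on chromosome 10 had no protein-coding gene within 50 kb of its regions. No other region of any list lay in the 63.6 kb it spans. Groups of 3 without such a gene stood at 110871239 on chromosome 11, 87075755 on chromosome 16 and 93549899 on chromosome 17.

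Genes of fatty acid metabolism were among the groups with a gene. A group of 3 spanned 51.2 kb at Acsm1 and Acsm4, which encode acyl-CoA synthetases, and no peak of the other 4 lists lay in it. Its span held 4 regions in all, and for the 3 regained ones that absence is the selection itself. These genes were chosen after their values had been seen, and no list of metabolic genes of this kind was counted.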
